A study of Mus musculus with 12 samples.

Results

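The 10 genes described here encode subunits of the Polycomb repressor machinery. Bmi1, Rnf2, Ring1 and Cbx7 belong to Polycomb repressive complex 1 (PRC1), Ezh1, Ezh2, Eed, Suz12 and Jarid2 to Polycomb repressive complex 2 (PRC2), and Asxl1 to the Polycomb deubiquitinase (PR-DUB). They were picked by gene name, as genes of stem cell self-renewal, and all 10 were found among the 35999 gene names of the deposited table. In hematopoietic stem and progenitor cells (HSPCs) of 6 wild-type (WT) and 6 Fancg knockout (KO) mice, no member differed between genotypes beyond the spread of the libraries. Ezh2 had the highest mean signal per kilobase of the members and Cbx7 the lowest, but each overlapped in range with the member next to it.

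Polycomb complexes keep genes silent through histone marks. PRC2 methylates a lysine of histone H3, PRC1 attaches ubiquitin to histone H2A, and PR-DUB takes that ubiquitin off again. In the blood system the machinery is best known for holding the cell cycle inhibitors of the Cdkn2a locus and developmental regulators silent, and Bmi1 is a textbook gene of hematopoietic stem cell self-renewal.

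LSK cells, the bone marrow cells that lack lineage markers and carry Sca-1 and Kit, were sorted from each mouse, and the RNA of each sort gave 1 library. One group was WT and the other was FancgKO, a homozygous loss of Fancg, which encodes a subunit of the Fanconi anemia core complex that acts in the repair of DNA crosslinks. Libraries carry the numbers 2 to 7 in both groups. The part of Fancg removed and the strain, age and sex of the mice were not given in the sources used here. No treatment is named for either group, and whether each library holds 1 mouse is read from the count of mice alone. The question was how loss of the Fanconi anemia pathway alters the transcriptome of HSPCs.

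Values are the authors' normalized estimated counts, called signal below. Their total was 1576081 to 2672915 per library. The smallest steps between low values gave an approximate depth of 1235109 to 2471417 reads per library, which is shallow. The gene Lars2 alone held 15.6 to 36.2% of the signal of a library, so the depth left for other genes was lower and uneven. The 12 LSK marker genes summed to 1878 to 2408 in WT and 1518 to 2224 in KO. Kit signal was 302 to 392 in WT and 283 to 435 in KO, whereas Ly6a, which encodes Sca-1, was at only 6.15 to 17.4 and 4.84 to 16.1. One of the 12, the receptor gene Flt3, had an unadjusted limma p under 0.05 and was lower in KO (log2 fold change -0.51, limma p = 0.0423, exact permutation p = 0.0628). The 20 genes of mature lineages summed to 88.7 to 402 in WT and 98.5 to 432 in KO. Of these, 10 were at a mean under 1, and the granulocyte marker Ly6g was at 0 in every library. Elane, Nkg7, Itgam and Ly6c2 of this list had means of 84.4, 42.7, 25.7 and 22.4 over the 12 libraries, above 10.8 for Ly6a. The part of the 20 lineage genes in the results below was not tested. Fancg itself did not separate the labels, with 4.76 to 24.1 in WT and 4.46 to 14.5 in KO. The pseudogene Gm18853 was at 0 to 0.0304 in 5 WT libraries and 15.1 to 70.9 in 5 KO libraries, but at 19.2 in the library labelled WT replicate 3 and 1.84e-05 in the library labelled KO replicate 3. Gm18852 was at 30.99 to 73.1 in all 6 WT libraries, WT replicate 3 included at 54.3, and at most 0.0172 in 4 KO libraries, but at 68.4 in KO replicate 3 and 44.9 in KO replicate 7. Zmat3, which encodes a p53-responsive RNA-binding protein, followed the labels in every library, at 6.92 to 13.0 in WT and 14.9 to 30.2 in KO, with 13.0 in WT replicate 3 and 18.7 in KO replicate 3. The paper had picked out Zmat3 as overexpressed in KO from LSK cells of 6 KO and 6 WT mice. Zmat3 is therefore not an independent check of the labels. Y-linked transcripts were low in WT replicate 3 and KO replicate 7, with sums of 26.6 and 49.7 against 189 to 435 in the other libraries. Without both replicate 3 libraries the log2 fold changes of Ezh1, Eed, Suz12 and Jarid2 were 0.41, 0.25, 0.34 and 0.28, and those of Bmi1, Rnf2 and Ring1 were -0.07, -0.10 and 0.13. Without WT replicate 3 and KO replicate 7 those of Ezh1, Ezh2, Eed, Jarid2 and Asxl1 were 0.55, -0.24, 0.18, 0.28 and 0.49, and those of Bmi1, Rnf2 and Ring1 were -0.14, -0.11 and 0.12. The values with all libraries, and the remaining ones without these, are given with each gene below.

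Each gene was tested with limma on log2(signal + 1), so a fold change of a low gene is understated, and genes with a mean signal under 10 were not tested. Cbx7, at a mean of 7.27, was the 1 member not tested. None of the 9 members tested passed an adjusted p of 0.05 (0% of 8887 genes did), and each had an adjusted p of 0.9996 (limma, Benjamini-Hochberg). At an unadjusted limma p under 0.05 the count was also 0 of 9, against a background of 3.67% of genes, and with a log2 fold change beyond 0.5 in addition it was again 0, against 2.62%. The exact permutation test over the libraries, which can go no lower than p = 0.00216 for 6 against 6, gave no p under 0.05 for any of the 10 members. It was not run over all genes, so no background share stands beside that count. In no member did the WT and KO libraries separate without overlap, which happened for 0.09% of genes tested. The mean log2 signal was higher in KO for 6 of the 9 members tested, and 50.7% of all genes tested lay on that side. Their median log2 fold change was 0.22, beside 0.003 for all genes. Bulk RNA cannot tell fewer cells of a type from less RNA per cell.

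**Figure D1:**
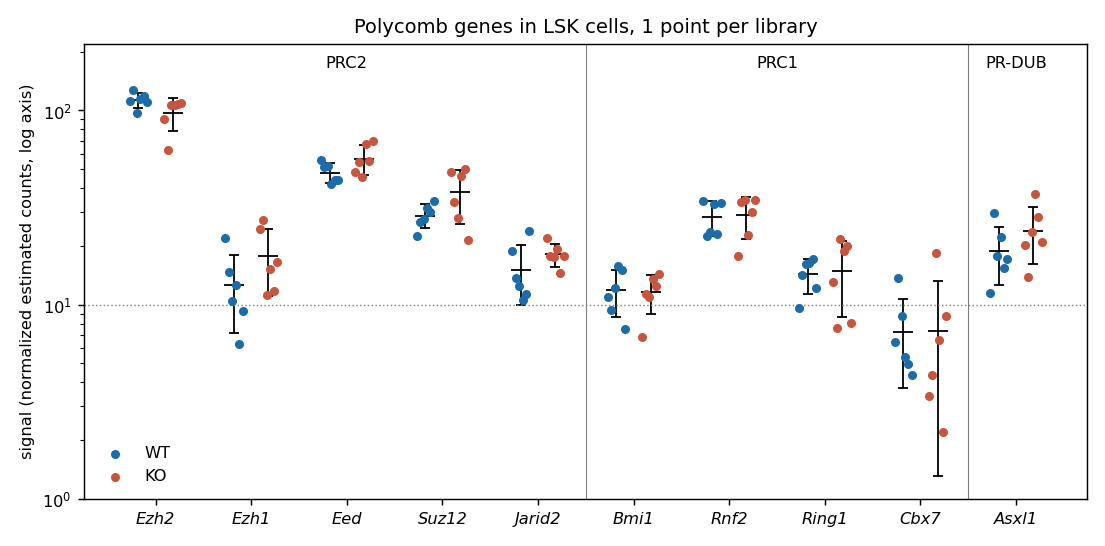
Signal of the 10 Polycomb genes in each library on a log axis, grouped by complex, with WT in blue and KO in red. Horizontal marks are group means, bars are 1 SD (n = 6 per group) and the dotted line is the mean signal of 10 below which a gene was not tested. The WT and KO points overlap for every gene, and Ezh2 is the highest member in each library.

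PRC2 places the histone H3 methyl mark, and its catalytic subunit is either EZH2, which prevails in dividing cells, or its paralog EZH1, which prevails in resting cells. Ezh2 (chr6:47530139-47595341, minus strand, GRCm38) had the highest signal of the members. In WT its signal ran from 97.3 through a median of 113 to 127. The KO libraries ran from 62.3 through 107 to 109. All 6 KO libraries lay below the WT median. KO replicates 3 and 2, at 62.3 and 89.9, were below every WT library, while the other 4 KO libraries fell within the WT range. KO minus WT was -0.24 on the log2 scale with a 95% interval of -0.57 to 0.09 (limma p = 0.137, exact permutation p = 0.0801), which is a fold of 0.847 with an interval of 0.676 to 1.06. Both extremes of Ezh2 were in replicate 3 libraries, the highest in WT and the lowest in KO. Without KO replicate 3 the log2 fold change was -0.12, and without both replicate 3 libraries it was -0.08.

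Ezh1 (chr11:101191115-101226463, minus strand) had the largest log2 fold change of the members tested. WT libraries had a lowest signal of 6.31, a median of 11.6 and a highest of 22.1. In KO the corresponding values were 11.2, 15.9 and 27.4. KO replicates 2 and 3, at 24.4 and 27.4, exceeded every WT library, and the other 4 KO libraries lay within the WT range, which itself reached up to WT replicate 2 at 22.1. The log2 fold change of 0.48 had an interval of -0.16 to 1.13 and did not pass the test (limma p = 0.133, exact permutation p = 0.147). Leaving out WT replicate 2 gave 0.65 with an unadjusted limma p of 0.0449 and an adjusted p of 0.997. Per kilobase of exon, Ezh2 exceeded Ezh1 in all 12 libraries. The ratio of their signal per kilobase ran from 5.62 through a median of 10.3 to 21.0 in WT and from 2.53 through 7.60 to 10.7 in KO. The low end was held by KO replicates 3 and 2, at 2.53 and 4.10, and the ratio in the other 4 KO libraries lay within the WT range.

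The promoters of both paralogs and of Suz12 are shown because these genes gave the lowest unadjusted p-values of the members and because Ezh2 and Ezh1 took opposite sides. RefSeq windows on GRCm38.p6 from 250 bases before to 50 bases after a start site were found for 10 of 10 members, 11 windows in all. They were searched on both strands for the E2F-type motifs TTTCCCGC, TTTGGCGC, TTTCGCGC and TTTGCCGC and for CCAAT, and in the members' windows no match of one kind overlapped one of the other. The stretches below hold no annotated exon, read 5′ to 3′ on the gene's strand, and carry the motif matches in capitals.
Ezh2 (chr6:47595059-47595183, minus strand): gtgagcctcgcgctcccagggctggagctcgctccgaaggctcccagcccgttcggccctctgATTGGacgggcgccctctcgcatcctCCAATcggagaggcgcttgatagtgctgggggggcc
Ezh1 (chr11:101226464-101226713, minus strand): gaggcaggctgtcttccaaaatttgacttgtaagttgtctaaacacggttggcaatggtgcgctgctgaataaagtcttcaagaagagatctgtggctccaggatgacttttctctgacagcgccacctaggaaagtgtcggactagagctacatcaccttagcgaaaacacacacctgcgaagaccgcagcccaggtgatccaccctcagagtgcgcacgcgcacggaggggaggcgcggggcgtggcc
Suz12 (chr11:79992856-79993105, plus strand): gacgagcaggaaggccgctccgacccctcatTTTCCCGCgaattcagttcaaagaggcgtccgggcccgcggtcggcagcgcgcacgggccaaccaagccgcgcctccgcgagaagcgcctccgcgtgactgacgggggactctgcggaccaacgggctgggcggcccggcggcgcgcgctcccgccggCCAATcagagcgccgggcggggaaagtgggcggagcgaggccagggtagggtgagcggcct
An E2F-type motif was present in the windows of 2 members, Ezh2 and Suz12, and in 744 of the 32851 background windows searched (2.26%). Each of these motifs holds a CG. The Ezh2 and Suz12 windows were rich in CG, with 31 and 41, beside a median of 7 in the background, which was not matched for this. The Suz12 match, TTTCCCGC, begins 219 bases before the start site. That of Ezh2, TTTGGCGC, begins 4 bases after its start site and so lies outside the stretch shown. CCAAT occurred in 37.4% of the same background windows and 2 or more times in 11.7%. Among the members it occurred in 6 of 11 windows, those of Ezh2, Eed, Suz12 and Cbx7 and both of Jarid2. Ezh2 had 3 matches, beginning 90, 64 and 11 bases before the start, of which the first 2 are in the stretch shown (the match at 90 is on the opposite strand and reads ATTGG). Suz12 had 1 match, 61 bases before the start. The Ezh1 window held neither motif. These matches describe the letters of the windows only, and binding was not measured here.

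Eed and Suz12 are the non-catalytic core subunits that the methyltransferase needs. Eed (chr7:89954654-89980983, minus strand), whose protein reads the methyl mark, ran from 41.9 through 47.4 to 55.4 in WT. Its KO libraries ran from 45.4 through 54.5 to 69.6. KO replicates 5 and 7, at 66.9 and 69.6, were above every WT library, and the other 4 lay inside the WT range. This gave a log2 fold change of 0.22 with an interval of -0.10 to 0.54 (limma p = 0.156, exact permutation p = 0.0996). Suz12 (chr11:79993106-80034123, plus strand) ran from 22.5 through 28.8 to 34.3 in WT and from 21.5 through 39.8 to 49.8 in KO. Its KO libraries were widely spread. Replicates 2, 5 and 6 stood at 45.8 to 49.8, above every WT library, and replicates 3, 4 and 7 stood at 21.5 to 33.8. For Suz12 the log2 fold change was 0.33 with an interval of -0.12 to 0.79 (limma p = 0.138, exact permutation p = 0.139). KO replicate 7 had the lowest Suz12 signal, and without it the log2 fold change was 0.48 with an unadjusted limma p of 0.0238 and an adjusted p of 0.9999. Leaving out WT replicate 3 and KO replicate 7 together gave 0.46, with an unadjusted limma p of 0.0404 and an adjusted p of 0.969.

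Jarid2 (chr13:44729474-44921643, plus strand) encodes an accessory subunit that helps to bring PRC2 to chromatin. Its signal ran from 10.5 through 13.1 to 23.9 in WT and from 14.5 through 17.8 to 22.0 in KO. All 6 KO libraries were above the WT median, but WT replicate 7, at 23.9, was the highest of the 12. On the log2 scale KO exceeded WT by 0.29, with an interval of -0.19 to 0.77 (limma p = 0.216, exact permutation p = 0.169).

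**Figure D2:**
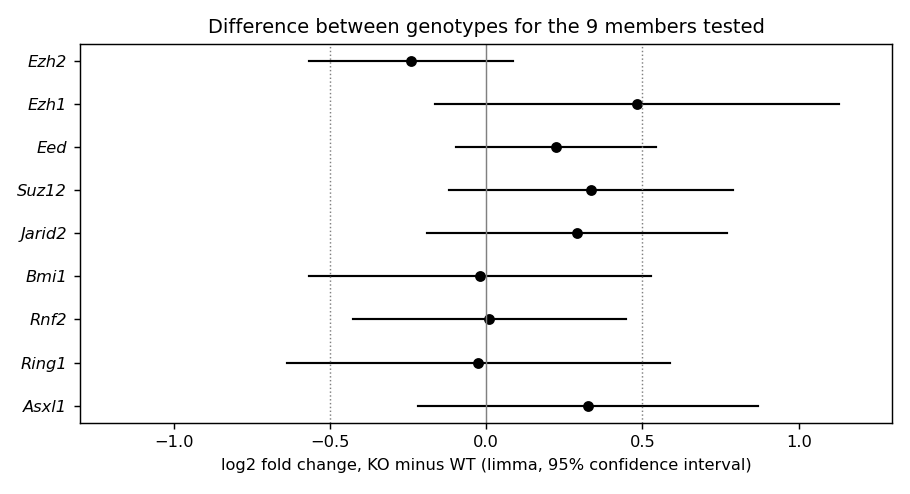
Log2 fold change of KO minus WT for the 9 members tested, with 95% confidence intervals from limma (n = 6 per group). Every interval crosses 0, and dotted lines mark -0.5 and 0.5. Ezh1 has the highest estimate, 0.48, and Ezh2 the lowest, -0.24.

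Among the PRC1 genes, Bmi1 (chr2:18677018-18686629, plus strand) encodes a RING-type partner that stimulates the ubiquitin ligase. Its signal ran from 7.51 through 11.6 to 15.9 in WT and from 6.85 through 11.9 to 14.4 in KO. The 2 ranges were nearly the same, with 3 KO libraries above the WT median and 3 below. The genotypes differed by -0.02 on the log2 scale, with an interval of -0.57 to 0.53 (limma p = 0.936, exact permutation p = 0.922). Bmi1 shares 28.2% of its transcript stretches of 31 bases with other genes, nearly all of it (27.5%) with the pseudogene Gm5946, which had a mean signal of 0.175, so its reads may be split. For the other 9 members the shared part was at most 1.65%.

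Rnf2 and Ring1 encode the alternative catalytic ubiquitin ligase subunits, RING1B and RING1A. Rnf2 (chr1:151458004-151500955, minus strand) ran from 22.6 through 28.4 to 34.3 in WT and from 17.8 through 31.8 to 34.8 in KO. In WT it was at 22.6 to 23.6 in replicates 3, 4 and 6 and at 33.1 to 34.3 in the other 3, so the WT libraries fell into a low and a high set. The log2 fold change was 0.01 with an interval of -0.43 to 0.45 (limma p = 0.962, exact permutation p = 0.913). Ring1 (chr17:34020792-34024680, minus strand) ran from 9.63 through 15.2 to 17.1 in WT and from 7.60 through 15.99 to 21.9 in KO. KO replicates 4, 5 and 6, at 18.9 to 21.9, were above every WT library, and KO replicates 3 and 7, at 7.60 and 8.03, were below every one. The mean difference came to -0.03 on the log2 scale with an interval of -0.64 to 0.59 (limma p = 0.931, exact permutation p = 0.929). Rnf2 had more signal per kilobase than Ring1 in 11 of 12 libraries, by a ratio of 1.07 to 2.80 in WT and 0.943 to 3.48 in KO. The annotated span of Rnf2 overlaps that of Trmt1l on the opposite strand over 158 bases, and that of Cbx7 overlaps Apobec3 on the opposite strand over 100 bases. Overlap of exons was not measured. Other annotated genes overlap the spans of members too, but none of them had a signal above 0 in the deposited table. Whether counting used the strand was not given in the sources used here.

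Cbx7 (chr15:79915807-79971119, minus strand) encodes a chromodomain subunit through which PRC1 binds the methyl mark. It had the lowest mean signal and was the most variable member. WT libraries ran from 4.32 through 5.88 to 13.7 and KO libraries from 2.20 through 5.48 to 18.6. The highest values were single libraries in each group, KO replicate 4 at 18.6 and WT replicate 3 at 13.7. The difference of the mean log2 values was -0.16 (exact permutation p = 0.719). Its opposite-strand neighbour Apobec3 had a mean signal of 278.

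Asxl1 (chr2:153345829-153404007, plus strand), a gene mutated in myeloid malignancies, encodes the cofactor that PR-DUB needs to remove ubiquitin from histone H2A. It ran from 11.5 through 17.5 to 29.5 in WT and from 13.9 through 22.3 to 37.0 in KO. The KO maximum was replicate 5 at 37.0, and the lowest KO library and the highest WT library were both replicate 3, at 13.9 and 29.5. Its log2 fold change was 0.33 with an interval of -0.22 to 0.87 (limma p = 0.222, exact permutation p = 0.234). Without both replicate 3 libraries it was 0.60, with an unadjusted limma p of 0.0266 and an adjusted p of 0.999. Leaving out KO replicate 5 gave 0.19 and leaving out WT replicate 2 gave 0.20.

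Levels of different members can be set side by side only per length, and here signal was divided by the kilobases covered by a gene's annotated exons (GENCODE M21). The order was Ezh2 at 15.8 ± 2.47, Eed at 13.6 ± 2.31, Rnf2 at 6.94 ± 1.49, Suz12 at 6.73 ± 1.95 and Ring1 at 4.51 ± 1.44 signal per kilobase (SD, n = 12). It went on with Bmi1 at 2.95 ± 0.711, Asxl1 at 2.89 ± 0.983, Ezh1 at 2.04 ± 0.864, Jarid2 at 1.71 ± 0.430 and Cbx7 at 1.12 ± 0.721. Of the neighbours in this order, only Eed and Rnf2 were apart by more than their spread, with Eed above Rnf2 in 12 of 12 libraries and no overlap of the ranges. The other 8 neighbouring pairs overlapped in their ranges and in their intervals of 1 SD around the mean. Suz12 was nevertheless above Ring1 in 11 of 12 libraries, Ring1 above Bmi1 in 10, and Ezh2 above Eed in 9, whereas Bmi1 was above Asxl1 in 6. Dividing by the longest annotated transcript moved Ezh1 from place 8 to place 6, and the intervals of 1 SD of Ezh2 and Eed, at 37.8 and 25.3, then no longer overlapped.

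The spread of the members was close to that of counting for some and wider for others. At the approximate depth, Bmi1 had a mean of 12.2 reads per library and a coefficient of variation within genotypes of 25.2%, beside 28.6% from counting alone. For Jarid2 these were 24.4% and 24.3%, and for Eed 15.3% and 13.7%. Ezh1 varied by 40.3% beside 25.4% from counting, Cbx7 by 67.5% beside 36.1%, and Ezh2, with a mean of 107 reads, by 14.1% beside 9.65%. Asxl1, Suz12, Ring1 and Rnf2 also varied more than counting gives, by 33.2%, 26.5%, 33.4% and 22.5% beside 21.1%, 17.0%, 25.4% and 18.4%. These counting values cover counting error only. The median standard error of the log2 fold change was 0.23 for the members and 0.24 for all genes tested.

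Because EZH2 and EZH1 are known from dividing and resting cells, both were set against the mean log2 signal of 28 cell cycle genes, 3 relations in all. That mean was 5.97 ± 0.23 in WT and 6.04 ± 0.37 in KO (SD, n = 6 each, exact permutation p = 0.727). None of the 28 had an unadjusted p under 0.05, with 19 higher in KO, 9 lower and a median log2 fold change of 0.09. Over the 12 libraries Ezh2 and the list had r = 0.52 (permutation p = 0.0756, adjusted p = 0.0756) and rho = 0.16 (permutation p = 0.618, adjusted p = 0.618). Without KO replicates 3 and 7, the libraries farthest from the median of the list, r was 0.03, so the relation rested on them. Within WT, r was -0.28 (exact permutation p = 0.614, adjusted p = 0.903), and rho was -0.26 (exact permutation p = 0.658). Within KO, r was 0.91 (exact permutation p = 0.00139, adjusted p = 0.00417) and rho was 1 (exact permutation p = 0.00278, adjusted p = 0.00833), and r was 0.89 without KO replicates 3 and 2. Those remaining 4 KO libraries held Ezh2 at 107 to 109, a span smaller than counting error. Whether the relation differs between genotypes was not tested.

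Ezh1 and the cell cycle list had r = -0.61 over the 12 libraries (permutation p = 0.0339, adjusted p = 0.0568) and rho = -0.48 (permutation p = 0.121, adjusted p = 0.337), and r was -0.65 without KO replicates 3 and 7. Within genotypes r was -0.78 in WT (exact permutation p = 0.0778) and -0.77 in KO (exact permutation p = 0.0764), with rho of -0.77 (exact permutation p = 0.103) and -0.49 (exact permutation p = 0.356). The adjusted p-values of r were 0.233 in WT and 0.0764 in KO. In KO, r turned to 0.62 without replicates 3 and 2, so it rested on them, while in WT it was -0.81 without replicates 3 and 6. Ezh2 and Ezh1 themselves had r = -0.60 (permutation p = 0.0378, adjusted p = 0.0568) and rho = -0.38 (permutation p = 0.225), with r = 0.003 once KO replicates 3 and 2 were left out. Within WT, r was 0.07 (exact permutation p = 0.903) and rho was 0.14 (exact permutation p = 0.803). In KO, r was -0.82 (exact permutation p = 0.0278, adjusted p = 0.0417), rho was -0.49 (exact permutation p = 0.356), and r was 0.61 without replicates 3 and 2. In both genotypes, replicates 2 and 3 had the lowest mean of the list and the highest Ezh1. Lars2 was also lowest there, at 15.6 to 19.0% of the signal, beside 24.7 to 36.2% in the other libraries. Permutation over libraries takes no account of a factor shared by same-numbered libraries, and its part in these correlations was not tested.

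**Figure D3:**
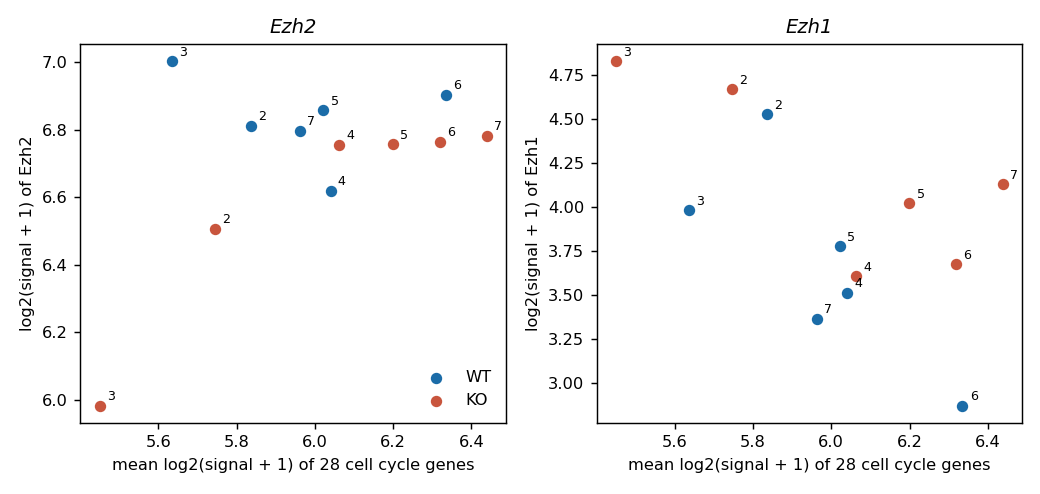
Log2(signal + 1) of Ezh2 (left) and Ezh1 (right) against the mean log2(signal + 1) of 28 cell cycle genes, 1 point per library with its replicate number, WT in blue and KO in red. KO replicates 3 and 2 are the lowest in Ezh2 and the highest in Ezh1, and the other 4 KO libraries form a flat line in Ezh2 at 107 to 109 signal.

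The genes whose deviations from the genotype means were most like those of Ezh2 over the 12 libraries were Actn4 (r = 0.91), Mrps18a (r = 0.91) and 0610037L13Rik (r = 0.90), out of 8887. For Bmi1 they were Ubox5 (r = 0.90), Ugdh (r = 0.88) and Cops9 (r = 0.87). The member most like Ezh2 was Asxl1 (r = 0.65), and Bmi1 ran most against Jarid2 (r = -0.75). These are descriptions over libraries that share depth and sort, with the largest values taken from many.

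The remaining genes of the complexes were taken from lists. Of 23 further PRC1 genes 19 were tested, 8 with a higher mean in KO and 11 with a lower one, and their median log2 fold change was -0.09. None had an unadjusted p under 0.05. The farthest on each side were L3mbtl2, which encodes a subunit of a variant PRC1, at 0.41 (limma p = 0.284, exact permutation p = 0.348), and Scml2, which encodes a PRC1-associated protein, at -0.57 (limma p = 0.143, exact permutation p = 0.206). L3mbtl2 was at 0.13 without KO replicate 4 and 0.26 without WT replicate 3, and Scml2 at -0.26 without WT replicate 7. Of 9 further PRC2 genes 8 were tested, 3 higher and 5 lower, with a median of -0.05 and no unadjusted p under 0.05. They reached from Rbbp4, a histone-binding core subunit, at -0.23 (exact permutation p = 0.355) to Phf1, an accessory subunit, at 0.23 (exact permutation p = 0.318). Rbbp4 ran from 293 to 397 in WT and from 183 to 553 in KO, and its log2 fold change depended on single KO libraries, at -0.08 without replicate 2, -0.13 without replicate 3 and -0.40 without replicate 7, the last with an unadjusted limma p of 0.0426. Phf1 likewise was at 0.14 without KO replicate 2, 0.15 without KO replicate 3 and 0.37 without WT replicate 2. Of 10 further PR-DUB genes 8 were tested, 4 higher and 4 lower, with a median of 0.01 and no unadjusted p under 0.05. Asxl3 was listed at 0 in every library. Bap1, the catalytic subunit that ASXL1 activates, was at -0.11 (exact permutation p = 0.703). Mbd6, an accessory subunit, was at 0.62 (limma p = 0.0685, exact permutation p = 0.0909), with 5.51 to 17.4 in WT and 9.66 to 28.1 in KO. Without single libraries Mbd6 ran from 0.47 to 0.77, with unadjusted limma p-values from 0.032 to 0.166.

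Enzymes and complex subunits that work against Polycomb silencing were all 11 tested, with 5 higher in KO, 6 lower and a median of -0.02. Kdm6a, which encodes an X-linked demethylase that removes the PRC2 mark, was the 1 of them with an unadjusted p under 0.05. It ran from 53.4 through 59.3 to 88.1 in WT and from 54.7 through 89.4 to 153 in KO. The highest WT library was replicate 3 and the highest KO library was replicate 7, the libraries low in Y-linked transcripts, while KO replicate 3 lay at 54.7 among the lowest. The log2 fold change was 0.55 with an interval of 0.08 to 1.02 (limma p = 0.0242, adjusted p = 0.9996, exact permutation p = 0.0476). It was 0.50 without WT replicate 3 and KO replicate 7, with an unadjusted limma p of 0.027 and an adjusted p of 0.969. Without both replicate 3 libraries it was 0.79, with an unadjusted limma p of 0.0012 and an adjusted p of 0.999. Leaving out WT replicate 2, KO replicate 4 or KO replicate 7 alone gave 0.50, 0.46 and 0.41, with unadjusted limma p-values of 0.0507, 0.0587 and 0.0643, so each of these libraries ended the unadjusted call. Kmt2b, a methyltransferase of the opposing mark, was the lowest of this list at -0.22 (exact permutation p = 0.483), and ran from -0.07 without WT replicate 4 to -0.41 without WT replicate 3.

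Genes that Polycomb is known to silence were mostly low. Only 6 of 20 were tested, 2 higher and 4 lower in KO, with a median of -0.18. Cdkn2a and Cdkn2b, the classical targets in stem cells, were listed at 0 in all 12 libraries of both genotypes. Hmga2, a chromatin gene of fetal-type stem cells, was the 1 with an unadjusted p under 0.05. It ran from 41.9 through 66.7 to 73.2 in WT and from 24.6 through 39.3 to 54.2 in KO. The groups overlapped through WT replicate 4, which at 41.9 lay below 3 of the KO libraries. The log2 fold change of -0.67 had an interval of -1.11 to -0.23 (limma p = 0.00544, adjusted p = 0.9996, exact permutation p = 0.013), and Hmga2 stood at rank 22 of 8887 by p. It was -0.73 without both replicate 3 libraries. Ebf1, a B-cell factor, had the highest log2 fold change of the 6 tested, at 0.18 (exact permutation p = 0.79), and was far lower in replicates 6 and 7 of both genotypes, at 22.6 to 41.0, than in the other 8 libraries, at 82.0 to 288. Among the 14 genes not tested, Gata4, which is named after its values were seen, was at 0 to 4.00 in WT and 0 to 9.26 in KO, with a mean of 3.17 (exact permutation p = 0.0563).

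**Figure D4:**
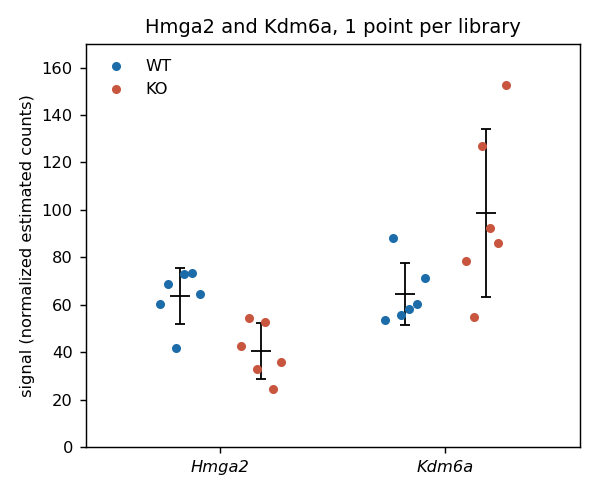
Signal of Hmga2 and Kdm6a in each library, WT in blue and KO in red, with means and SD (n = 6 per group). Hmga2 was at 41.9 to 73.2 in WT and 24.6 to 54.2 in KO, and Kdm6a at 53.4 to 88.1 and 54.7 to 153, so the groups overlap for both.

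**Figure D5:**
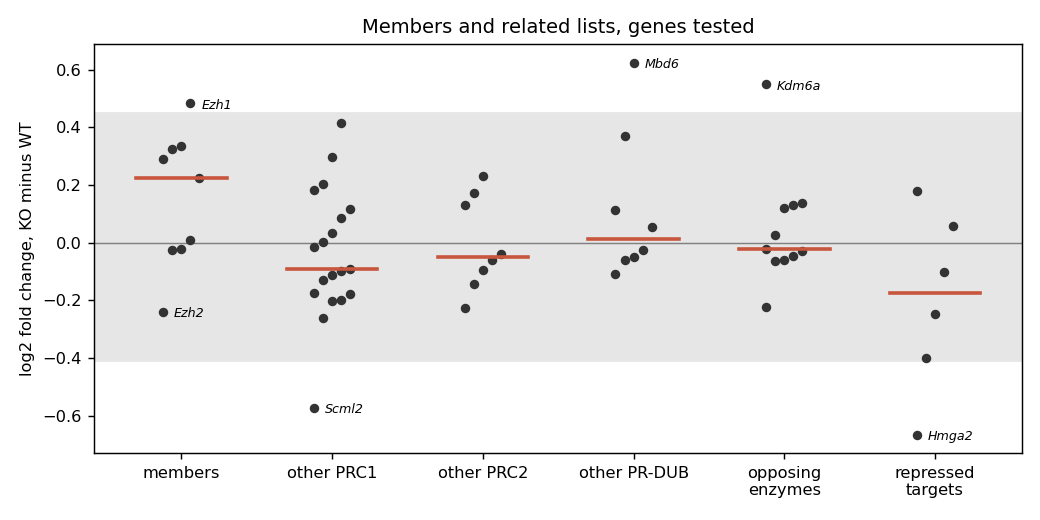
Log2 fold change of KO minus WT for the genes tested in each list, 1 point per gene, with the list's median as a red line. The grey band holds the values between the 5th and 95th percentile of all 8887 genes tested, -0.41 to 0.45. Points outside it are named: Ezh1, Scml2, Mbd6, Kdm6a and Hmga2, and Ezh2 is named inside it.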

How the data were processed

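LSK cells were sorted from bone marrow, total RNA was isolated, and libraries were made from enriched mRNA with the CATS RNA-seq Kit v2. The deposited table holds normalized signal per gene name, made by the authors with kallisto (version, mouse build and annotation not given in the sources used here). The signal is not whole counts, and 9.97 to 11.1% of values above 0 were whole multiples of the smallest step (tolerance 0.001), so no count test was run and depth is approximate. Groups came from the genotype labels. The authors' test in Sleuth was not repeated.

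Genes whose mean signal reached 10 (8887 of 35999) were tested with limma 3.58.1 (R 4.3.3, trend, Benjamini-Hochberg) on log2(signal + 1). Two-sided exact permutation tests and permutation p-values (100000 draws for 12 libraries) used scipy 1.17.1. Within a set of libraries the correlation p-values were adjusted over 3 relations. Gene positions and lengths are from GENCODE M21 (GRCm38), matched by name (35929 of 35999). In simulated data of this size (8696 genes) limma called 37 of 98 genes changed by a log2 fold change of 1, 99 of 100 changed by 2, and 3 of 8498 unchanged. The simulation gave every gene the same dispersion and no factor shared between libraries, so these rates need not hold for single members.

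Members and lists were chosen with earlier results of these data known. Named were all members, the genes of the complex, opposing and target lists with an unadjusted p under 0.05, the largest change on each side of each list, and the 3 genes most like Bmi1 and Ezh2. Alternatives were other pseudocounts, filters, scalings, a limma fit without trend, a replicate block and leaving out libraries. Leaving out WT replicate 3 with KO replicate 7, or both replicate 3 libraries, was chosen after seeing the data. P-values measure the spread between these libraries.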

Additional observations from a re-analysis of the deposited data

Results flagged for a closer look

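Within a group of 6, a library was singled out when its gap to the nearest other library, as a part of the group's range, exceeded Dixon's 95% critical value. Of 40 groups examined (the members and the named genes in each genotype), 2 met it, and chance gives about 2. L3mbtl2 signal was 52.4 in KO replicate 4, beside 11.3 to 19.7 in the other KO libraries. Scml2 signal was 64.3 in WT replicate 7, beside 14.0 to 20.6 in the other WT libraries. None of the 10 members met this criterion in either genotype.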

How the results depend on the processing

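No member passed an adjusted p of 0.05 in any of the alternatives run, and the genotype differences of Ezh1, Ezh2, Eed, Suz12, Jarid2 and Asxl1 kept their sign in all of them. Bmi1, Rnf2 and Ring1, all close to 0, did not. Rnf2 was at -0.0023 with median-of-ratios scaling and -0.011 with quantile normalization, and with scaling by the total without the top 15 genes Bmi1 and Ring1 were at 0.014 and 0.0085. Without WT replicate 3 and KO replicate 7, 1 member (Suz12) had an unadjusted p under 0.05, Bmi1 was at -0.14, Rnf2 at -0.11, Ring1 at 0.12 and Ebf1 at 0.56. Without both replicate 3 libraries 1 member (Asxl1) did, Rnf2 was at -0.10 and Ring1 at 0.13, and 1 gene, Gm18853, passed an adjusted p of 0.05 (limma, 0.000306). Gm18853 is the gene that went against the labels in just those 2 libraries. Its call therefore follows from the choice of libraries left out and is no result of its own. Leaving out single libraries gave 0 to 1 members with an unadjusted p under 0.05 (Ezh1 without WT replicate 2, Suz12 without KO replicate 7), -0.13 to 0.11 for Bmi1, -0.15 to 0.13 for Ring1, -0.05 to 0.14 for Rnf2, -0.26 to 0.050 for Bap1 and -0.20 to 0.48 for Ebf1. Over all genes, leaving out single libraries gave 276 to 385 with an unadjusted p under 0.05, beside 326 of 8887 (3.67%) with all libraries. The 11 other alternatives, both removals of 2 libraries included, gave 91 to 836, and both ends came from a changed filter. With no filter 836 genes had an unadjusted p under 0.05, 658 of them beyond a log2 fold change of 0.5, and the members' median was 0.12, since Cbx7 then counted. With a mean of at least 50, which leaves Ezh2 and Eed, these were 91, 37 and -0.0080, since fewer genes were tested. No scaling moved the median of all genes by more than 0.04. Libraries with the same number correlated at 0.0862 to 0.362 in their deviations, with a mean of 0.20 against -0.04 for other numbers, and 9 of 12 libraries correlated best with their own number. This hints at a shared factor, but only 4 of 6 pairs were over 0.1 and no label ties the numbers to a batch, so the numbers were not taken as pairs. A replicate block gave 286 genes past both thresholds against 233, 205 of them shared, 0 members with an unadjusted p under 0.05, and adjusted p-values of 0.889 to 0.999 for the members (limma). The lowest unadjusted one was that of Ezh1, 0.0597. Ezh1 was higher in KO in 6 of 6 same-numbered comparisons, and an exact sign-flip permutation test over them gave 1 member under 0.05, Ezh1, at p = 0.03125, the smallest it can give. Any gene whose 6 differences all lie on the same side reaches that value. The sign-flip test was not run over all genes, so no background share stands beside this count. Depth limits Cbx7 and Bmi1 most, with means of 7.69 and 12.2 reads per library.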
